A study of Drosophila melanogaster with 9 samples.

Results

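Feeding on wheat germ agglutinin (WGA) for 12 h was set directly against 12 h without food in the midgut of Drosophila melanogaster larvae. All 3 arrays whose titles name WGA and all 3 whose titles name starvation were taken, 6 of the 9 arrays in the series, with every probe set except the 44 control ones, which left 13966. The 3 arrays of untreated larvae did not enter the comparison. Larvae of the white-eyed strain w1118 were in the third instar in both groups, and the labels name no other allele and no transgene. The WGA larvae were labelled 108 h old (108 to 110 h for replicate 1) and then spent 12 h on food with 1% WGA. The starvation larvae were labelled 108 h old and then spent 12 h without food. Each array held RNA from 1 pool of 50 dissected midguts, with 3 pools per group given as biological replicates, so errors below describe the spread between pools. In such bulk samples, fewer cells of a type and less RNA per cell cannot be told apart. Because fed larvae were not used, a difference here does not say which of the 2 groups had moved away from the fed state.

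Wheat germ makes WGA, a lectin with binding sites for N-acetylglucosamine and for chitin, its polymer. In the larval midgut, chitin and glycoproteins form the peritrophic matrix, a sheet that separates food from the enterocytes. Enterocytes secrete proteases, lipases, glycosidases and lysozymes, and they hold much of the larva's glutathione S-transferases and cytochromes P450, which modify foreign compounds. Larvae without food have no meal to digest and draw on stored lipid and glycogen. The comparison therefore asks which transcripts separate lectin feeding from lack of food.

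The deposited signals of all probe sets summed to 1184145 to 1457246 per array after WGA, and to 909028 to 1277325 after starvation. Across the tested probe sets, whose values are not independent of each other, Pearson r was 0.942 to 0.953 among WGA arrays, 0.921 to 0.932 among starvation arrays and 0.878 to 0.904 between the groups. The first principal component of the 6 arrays held 44.8% of the variance. RNA integrity was read from the control probe sets, as the signal of a transcript's 3 prime part over that of its 5 prime part. For GAPDH this ratio was 2.22 to 2.41 after WGA, against 2.92 to 3.35 after starvation, without overlap. The ratios of eIF-4a (2.75 to 3.52 after WGA, 2.83 to 3.56 after starvation) and actin (1.17 to 1.49 after WGA, 1.44 to 1.51 after starvation) overlapped between the groups. The part of RNA integrity in the differences below was not tested. In the deposited values, the mean log2 signal of 9 spike-in probe sets was 8.89 to 9.06 after WGA, against 8.49 to 8.61 after starvation. The labels name no date or batch.

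Levels below are quantile-normalised log2 signals, and differences are WGA minus starvation on that log2 scale, with the standard error (SE) of the fit and n = 3 arrays per group. Of 8681 probe sets bright enough to test, covering 7150 genes, 636 were higher after WGA (7.33% of those tested) and 558 were lower (6.43%), at an adjusted p under 0.05 in limma. At least 2-fold differences made up 362 of the higher (4.17%) and 311 of the lower (3.58%) calls. The lower side held the larger differences. At least 4-fold, 55 probe sets were higher and 76 lower, and at least 8-fold, 11 were higher and 27 lower. The median difference of all tested probe sets was 0.02. The 3 WGA arrays and the 3 starvation arrays did not overlap in any of the 636 higher calls and in 557 of the 558 lower ones, as in 31.9% of all tested probe sets. Counted by genes, each through its brightest probe set, 7.57% were higher and 6.88% lower. These shares are the measure for the counts of all lists below. The balance of directions depended on the scaling. Higher probe sets made up 53.3% of the calls here, 86.6% with the deposited scaling (1288 higher, 200 lower) and 72.2% with median centring (974 higher, 375 lower), and the median over all tested probe sets moved to 0.38 and 0.13. That share was 59.1% with scaling on the spike-in probe sets. No call shared between the scalings changed direction. The counts also rested on single arrays, with 355 higher and 351 lower without WGA replicate 2, 407 higher without WGA replicate 3 and 337 lower without starvation replicate 2.

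**Figure D1:**
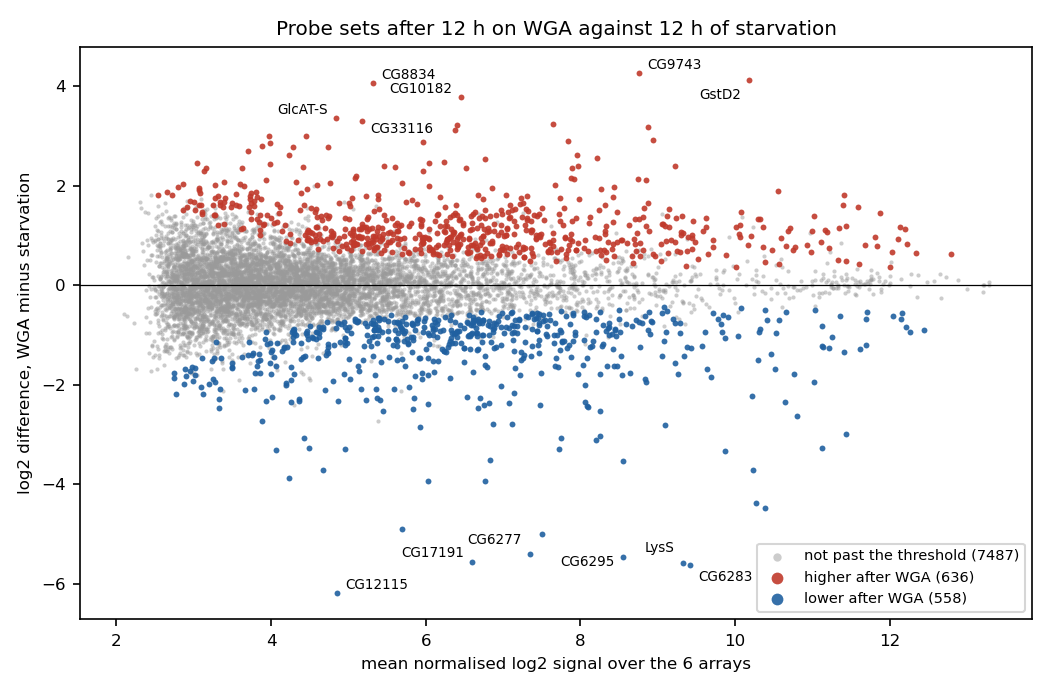
Difference of each tested probe set (y axis, log2, WGA minus starvation) against its mean normalised log2 signal over the 6 arrays (x axis), with the 6 largest differences in either direction labelled. The 636 higher and 558 lower probe sets spread over the whole range of levels, and 27 lower but 11 higher ones lay beyond 8-fold.

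Lipases of the pancreatic type and lysozymes gave 8 of the 15 largest lower differences. CG6283, CG17191, CG6295, CG6277 and CG6271 belong to this lipase family of the midgut, which cleaves dietary triglyceride. CG6283 was at 6.24, 6.64 and 6.95 after WGA, against 12.21, 12.32 and 12.14 after starvation, a difference of -5.61 ± 0.17 (SE) or 48.8-fold, adjusted p = 1.64e-07. Each WGA array lay far below every starvation array. CG17191 was at 3.37, 3.96 and 4.14 after WGA, against 9.15, 9.47 and 9.51 after starvation, a difference of -5.55 ± 0.22. CG6295 was at 5.45, 5.75 and 6.24 after WGA, against 10.98, 11.42 and 11.44 after starvation, a difference of -5.46 ± 0.21. The 3 arrays of each group lay close together for these genes, and the gap between groups was many times their spread. CG6277 differed by -5.40 ± 0.21 and CG6271 by -3.72 ± 0.30. In CG6271 the WGA arrays were more spread, at 8.17, 7.76 and 9.19, against 12.15, 12.14 and 11.99 after starvation. Of 20 tested members of the list of lipases and sterol transport (26 listed, 24 with a probe set of their own), 8 were lower and 2 higher, beside 6.88% lower and 7.57% higher over all tested genes, and the median difference was -0.42 against 0.03 over all tested genes. The acid lipase genes Lip3 and Lip4 were less far apart. Lip3 was at 10.08, 9.19 and 10.28 after WGA, against 10.96, 10.80 and 10.59 after starvation, a difference of -0.93 ± 0.25. Lip4 differed by -0.90 ± 0.21. CG31089, of the acid lipase family but not in this list, differed by -3.93 ± 0.44. Npc2c, of the Niemann-Pick type C2 family of sterol-binding proteins, differed by -3.51 ± 0.28, while its relatives Npc2a and Npc2e were higher by 0.61 ± 0.17 and 0.51 ± 0.11. Neither of these higher calls held without WGA replicate 2, WGA replicate 3 or starvation replicate 2, which left 0 higher members, nor with cyclic loess or spike-in scaling.

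All 6 tested lysozyme genes of 7 listed were lower after WGA. Lysozymes cleave the peptidoglycan of bacterial walls, and the Lys genes of the fly midgut act in digesting bacteria taken in with food. LysS was at 6.36, 6.65 and 6.59 after WGA, against 12.07, 12.15 and 12.11 after starvation, a difference of -5.58 ± 0.12 or 47.7-fold, adjusted p = 1.71e-08. Its spread within each group was small, and this was the smallest adjusted p of all tested probe sets. LysC was at 7.71, 8.16 and 8.56 after WGA, against 12.62, 12.57 and 12.67 after starvation, a difference of -4.48 ± 0.19, and LysE at 7.95, 7.84 and 8.47 after WGA, against 12.46, 12.66 and 12.26 after starvation, a difference of -4.37 ± 0.18. The probe sets of LysC and LysE were designed against a gene family and can hold signal of near-identical copies, so these genes are not independent readings. LysD differed by -3.28 ± 0.19, LysB by -2.99 ± 0.14 and LysX, the least, by -1.62 ± 0.36. The median of the list was -3.83, between -3.64 and -4.04 under the 4 other scalings.

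Proteases and glycosidases followed the same direction. Trypsins and the chymotrypsin-like Jonah proteases cut dietary protein in the lumen. Of 24 tested (29 listed), 13 were lower and 0 higher after WGA, with a median of -0.65. The trypsin gene thetaTry was at 3.58, 2.72 and 3.43 after WGA, against 7.73, 8.06 and 8.60 after starvation, a difference of -4.89 ± 0.29 or 29.7-fold. Jon25Bii was at 7.99, 8.21 and 8.39 after WGA, against 11.85, 11.65 and 11.09 after starvation, a difference of -3.33 ± 0.19. Jon74E was at 9.03, 9.59 and 9.84 after WGA, against 12.11, 12.09 and 12.18 after starvation, a difference of -2.63 ± 0.18. Groups did not overlap for any of these genes, as for nearly every lower call. The 11 members that did not pass the test included etaTry at 0.03 ± 0.13, Jon99Fii at 0.01 ± 0.08 and lambdaTry at 0.34 ± 0.43. The list counted 13 or 14 lower members with any array left out.

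Among genes of carbohydrate digestion, 13 of 17 tested (27 listed) were lower and 0 higher, with a median of -1.28. Maltases split sugars into glucose, amylase splits starch, and the LMan genes encode lysosomal alpha-mannosidases. LManIII was at 5.16, 5.71 and 6.27 after WGA, against 8.02, 8.60 and 8.90 after starvation, a difference of -2.79 ± 0.30. The maltase gene Mal-A6 was at 4.04, 3.92 and 4.61 after WGA, against 6.03, 6.30 and 7.82 after starvation, a difference of -2.53 ± 0.42. Mal-A8 was at 2.66, 3.0 and 1.58 after WGA, against 4.33, 5.67 and 7.16 after starvation, a difference of -3.30 ± 0.64, and its WGA mean was under 2.89, the filter level, which leaves the size of its difference uncertain. The amylase gene Amy-d differed by -1.28 ± 0.17, and the beta-galactosidase gene Gal by -1.46 ± 0.34. Mal-A1, at 0.17 ± 0.34, and Amyrel, at -0.16 ± 0.11, did not pass the test. With any array left out, 11 or 12 members were lower, and with starvation replicate 3 left out 1 was higher.

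**Figure D2:**
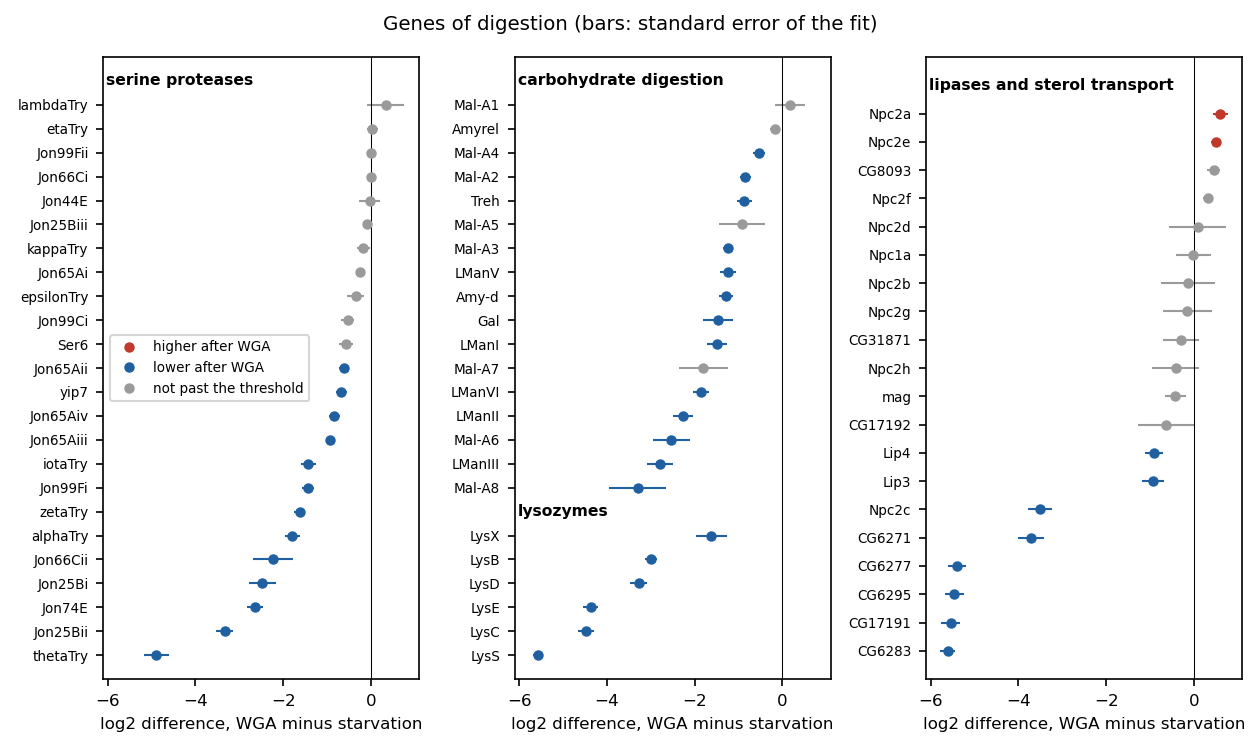
Difference of each tested digestion gene (x axis, log2, WGA minus starvation, bars: SE of the fit) for serine proteases, carbohydrate digestion with lysozymes, and lipases with sterol transport. Points left of 0 are lower after WGA: 13 of 24 proteases, 13 of 17 carbohydrate genes, 6 of 6 lysozymes and 8 of 20 lipid genes passed the test in that direction.

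The remaining large lower genes were outside the digestion lists above, and some have no role known with certainty. CG12115 had the largest difference of all, at 1.68, 1.69 and 1.89 after WGA, against 8.47, 7.78 and 7.57 after starvation, a difference of -6.18 ± 0.26 (SE). Its 3 WGA arrays lay below the filter level, so that size is uncertain, and without any 1 starvation array it did not pass the filter. CG3819, a gene of the DNA/RNA endonuclease family, was at 5.14, 4.92 and 4.94 after WGA, against 10.04, 10.07 and 9.89 after starvation, a difference of -5.0 ± 0.14, adjusted p = 8.79e-08. CG31089, of the acid lipase family, was at 4.19, 4.26 and 5.95 after WGA, against 9.09, 8.93 and 8.17 after starvation, a difference of -3.93 ± 0.44. Of these, CG3819 had the tightest groups. The alkaline phosphatase genes Alp9 and Alp7 were also among the 15 largest lower genes. Alp9 was at 5.52, 6.68 and 8.14 after WGA, against 10.08, 10.54 and 10.34 after starvation, a difference of -3.54 ± 0.51. Alp7 was at 2.84, 1.86 and 2.16 after WGA, against 4.26, 7.28 and 6.95 after starvation, a difference of -3.88 ± 0.69, with starvation replicate 1 well below the other starvation arrays and all 3 WGA arrays below the filter level, so that the size is uncertain. Scp2, a calcium-binding protein of the sarcoplasmic type, differed by -3.71 ± 0.42, and its mean after WGA of 2.82 was below the filter level.

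On the higher side, the largest difference was that of CG9743, of the family of acyl-CoA desaturases, which put double bonds into fatty acids. It was at 11.04, 10.96 and 10.68 after WGA, against 6.88, 6.29 and 6.72 after starvation, a difference of 4.26 ± 0.17 or 19.2-fold, adjusted p = 7.86e-07. CG8834, of the acyl-CoA synthetase family, was at 6.66, 7.36 and 8.01 after WGA, against 3.50, 3.51 and 2.83 after starvation, a difference of 4.06 ± 0.34. Both are lipid enzymes by family, and their groups lay far apart. CG10182 was at 8.42, 8.23 and 8.38 after WGA, against 4.90, 3.67 and 5.10 after starvation, a difference of 3.79 ± 0.33. CG33116 was at 7.04, 6.71 and 6.71 after WGA, against 3.61, 3.13 and 3.81 after starvation, a difference of 3.30 ± 0.23. CG5550 was at 10.33, 10.56 and 10.48 after WGA, against 7.65, 6.81 and 7.41 after starvation, a difference of 3.17 ± 0.20. In CG10182 starvation replicate 2 lay below the other starvation arrays, and in both CG10182 and CG5550 the WGA arrays lay closer together than the starvation arrays. The other genes among the 15 largest were CG3706 (3.01 ± 0.33), CG7381 (2.93 ± 0.26), CG44014 (2.90 ± 0.14), CG9555 (2.87 ± 0.20), CG11898 (2.99 ± 0.40) and CG13077 (2.85 ± 0.37). CG11898 encodes a transporter of the ABC type, and its starvation mean of 2.48, like that of CG13077 (2.56), was below the filter level. Of the 30 largest differences, 28 came from probe sets designed to be unique to their gene.

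**Figure D3:**
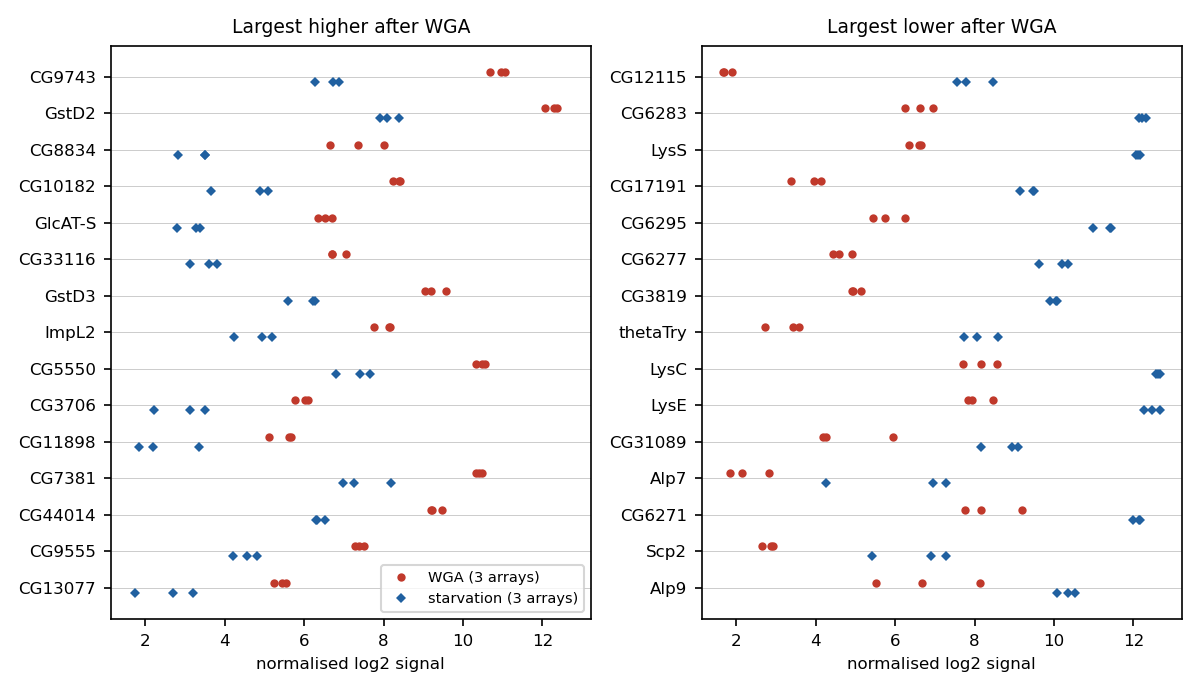
Normalised log2 signal (x axis) of each array for the 15 largest higher (left) and 15 largest lower genes (right), with circles for the 3 WGA arrays and diamonds for the 3 starvation arrays. Genes with overlapping groups were left out by the selection, so the lack of overlap follows from that rule. The 2 widest within-group spreads among the lower genes are those of Alp7 in starvation and Alp9 in WGA.

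Glutathione S-transferases conjugate glutathione to reactive compounds. Of 30 tested genes (35 listed, 34 with a probe set of their own), 16 were higher and 3 lower after WGA, beside 7.57% and 6.88% of all tested genes, and the median was 0.77. GstD2 was at 12.37, 12.29 and 12.07 after WGA, against 7.91, 8.09 and 8.38 after starvation, a difference of 4.12 ± 0.14 or 17.3-fold, adjusted p = 4.05e-07. GstD3 was at 9.57, 9.20 and 9.04 after WGA, against 6.21, 6.28 and 5.61 after starvation, a difference of 3.24 ± 0.21. The epsilon-class gene GstE9 was at 7.59, 7.82 and 7.03 after WGA, against 4.63, 5.43 and 4.91 after starvation, a difference of 2.48 ± 0.26. None of the 3 genes had overlapping groups, which holds for every higher call. Of the delta class, 9 of 10 tested genes were higher, down to GstD7 at 0.86 ± 0.18. GstD6, at -0.24 ± 0.22 with adjusted p = 0.553, was the exception. Of the epsilon class, 7 of 12 were higher and GstE12 was lower, at -1.0 ± 0.15. No gene of the omega, sigma, theta and zeta classes was higher, and GstT4 and GstT3, both of the theta class, were lower. GstT4 was at 7.66, 7.79 and 7.80 after WGA, against 9.41, 9.47 and 9.68 after starvation, a difference of -1.77 ± 0.12. GstT3 differed by -1.53 ± 0.15. In both directions these differences exceeded the spread between arrays. Higher members numbered 12 to 17 with any array left out, and the median was between 0.75 and 1.2 under the 4 other scalings. Members of the delta and epsilon classes are close in sequence, and how far their probe sets share signal was not tested.

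**Figure D4:**
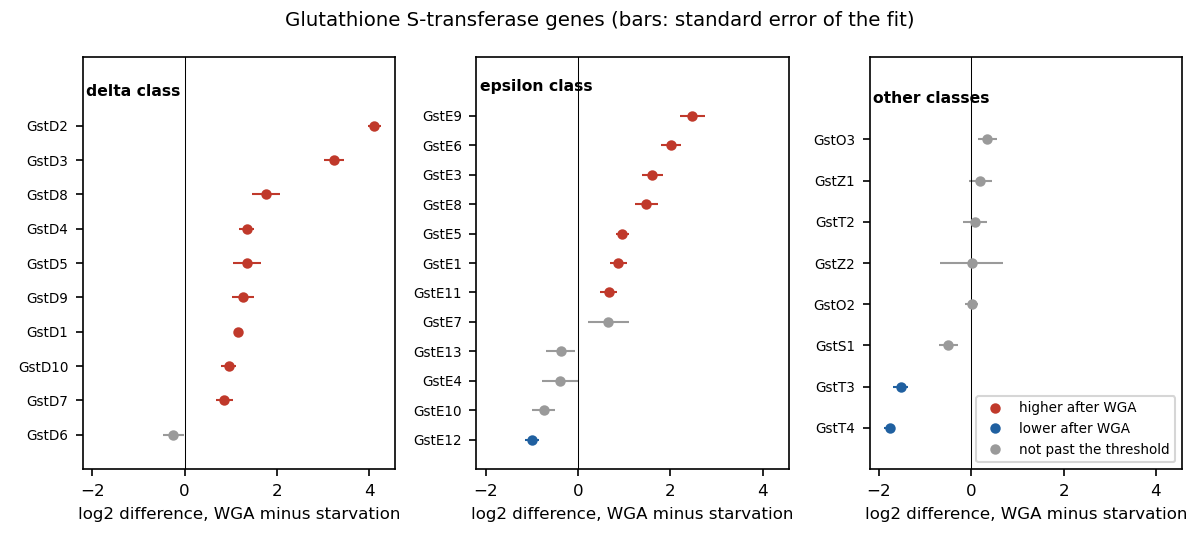
Difference of each tested glutathione S-transferase gene (x axis, log2, WGA minus starvation, bars: SE of the fit) by class. Of the delta class 9 of 10 genes and of the epsilon class 7 of 12 passed the test as higher, while GstT4 and GstT3 among the other classes passed it as lower.

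Cytochromes P450, which oxidise foreign compounds, hormones and fatty acids, went mostly the other way. Of 56 tested genes (81 listed), 17 were lower and 4 higher, with a median of -0.40, beside 6.88% lower and 7.57% higher over all tested genes. Cyp6g1, known for insecticide resistance, was at 5.86, 6.18 and 6.59 after WGA, against 9.21, 9.24 and 9.38 after starvation, a difference of -3.07 ± 0.19. Cyp4p1, in contrast, was at 9.22, 9.32 and 9.27 after WGA, against 6.54, 6.54 and 6.88 after starvation, a difference of 2.61 ± 0.14, adjusted p = 5.83e-06. Neither gene had overlapping groups, which holds for nearly every call. Cyp304a1 differed by -2.73 ± 0.44, with a mean after WGA of 2.52, below the filter level. Cyp4d1 and Cyp4d2, paralogous genes, were lower by -2.41 ± 0.18 and -2.37 ± 0.24. With any array left out, 13 to 16 P450 genes were lower. With the deposited scaling 11 were lower and 9 higher, and the median was -0.05.

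UDP-glycosyltransferases, which attach sugars to lipophilic compounds, had 5 lower and 2 higher of 23 tested, a count near that of all genes on the higher side. Ugt303A1 was at 7.30, 7.24 and 7.52 after WGA, against 8.66, 8.70 and 9.11 after starvation, a difference of -1.47 ± 0.16. The balance turned with the deposited scaling, to 2 lower and 4 higher. The lower count was 2 with median centring and 3 with spike-in scaling, and it was 1 without starvation replicate 2, 2 without WGA replicate 1 or 2 and 3 without starvation replicate 1. The higher count was 0 or 1 with any array left out. Among 15 antioxidant genes, 3 were lower and 2 higher. The lower ones held both subunits of glutamate-cysteine ligase, the first enzyme of glutathione synthesis. Gclm was at 6.57, 6.89 and 6.81 after WGA, against 8.09, 7.93 and 7.92 after starvation, a difference of -1.22 ± 0.15, and Gclc differed by -0.83 ± 0.15. Neither call held with the deposited scaling, at adjusted p = 0.0504 for Gclm and 0.508 for Gclc, and that of Gclc was also lost with median centring (0.0721) and spike-in scaling (0.119). The thioredoxin gene Trx2 was higher, at 8.0, 7.88 and 7.85 after WGA, against 7.24, 6.66 and 6.5 after starvation, a difference of 1.11 ± 0.20.

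Proteasome subunits and aminoacyl-tRNA synthetases gave higher and no lower calls, and most members of both lists did not pass the test. The proteasome degrades ubiquitin-tagged proteins. Of its 26 tested subunits, 9 were higher and 0 lower, the median was 0.58, and 25 of 26 differences were above 0. Prosalpha4 was at 8.29, 8.59 and 8.30 after WGA, against 6.89, 7.59 and 7.58 after starvation, a difference of 1.03 ± 0.20, and Prosbeta4 at 9.95, 10.12 and 9.77 after WGA, against 8.55, 8.91 and 9.36 after starvation, a difference of 1.0 ± 0.20. Leaving out 1 array left between 1 (WGA replicate 2) and 17 (starvation replicate 3) higher subunits, with 3 without WGA replicate 1, 2 without WGA replicate 3, 5 without starvation replicate 1 and 3 without starvation replicate 2. The deposited scaling gave 19 higher subunits, median centring 16, spike-in scaling 5 and a replicate block 14. The call of Prosalpha4 ended at adjusted p = 0.0512 without WGA replicate 2. Aminoacyl-tRNA synthetases, which charge tRNAs with amino acids, had 5 higher and 0 lower of 18, with a median of 0.71. ThrRS was at 7.36, 7.38 and 7.38 after WGA, against 6.26, 5.86 and 5.93 after starvation, a difference of 1.36 ± 0.16, and AsnRS differed by 1.36 ± 0.19. Their count was 3 without WGA replicate 1, WGA replicate 2 or starvation replicate 2, 11 without starvation replicate 1, and 8 with a replicate block. The deposited scaling gave 13, median centring 11 and spike-in scaling 8.

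Other chaperone and translation lists gave calls in both directions or none, beside 7.57% higher and 6.88% lower over all tested genes. Among 21 tested genes of the endoplasmic reticulum, 2 were higher and 4 lower. PEK, the kinase PERK that phosphorylates a translation initiation factor, was at 6.43, 6.68 and 6.74 after WGA, against 4.95, 5.37 and 5.58 after starvation, a difference of 1.32 ± 0.20. ERp60, a disulfide isomerase, was higher by 0.91 ± 0.15. The 4 lower genes numbered 0 under the deposited scaling, 2 under median centring or spike-in scaling, 2 without WGA replicate 1 or starvation replicate 2, and 7 without starvation replicate 3. Of 14 heat shock proteins, 1 was higher and 1 lower. Hsc70-4, a constitutive chaperone of the Hsp70 family, was higher, at 10.13, 10.28 and 10.14 after WGA, against 9.63, 9.57 and 9.52 after starvation, a difference of 0.61 ± 0.10, a call that ended with spike-in scaling. DnaJ-1, a co-chaperone of Hsp70, was lower, at 5.58, 5.95 and 5.68 after WGA, against 8.05, 7.57 and 6.83 after starvation, a difference of -1.75 ± 0.28. The small heat shock genes Hsp26 and Hsp27 had differences of -2.73 ± 0.94 and -2.40 ± 0.69 that missed the threshold, at adjusted p = 0.0909 and 0.05. With the deposited scaling 3 heat shock genes were higher and 3 lower. Of 27 cytosolic ribosomal proteins, 2 were higher and 1 lower, and of 19 ribosome biogenesis genes 0 passed in limma, and 0 at an unadjusted p under 0.05, with a median of 0.11. Of 21 vacuolar ATPase subunits 3 were higher and 2 lower, and 1 of 10 cathepsins and aspartic proteases was lower. Neither of these counts held under every scaling and array left out.

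Genes of the actin cytoskeleton and the apical brush border were higher in 10 of 17 tested (33 listed, 19 with a probe set of their own), with 0 lower and a median of 0.72. cpa, a subunit of the protein that caps actin filaments, was at 8.27, 8.53 and 9.01 after WGA, against 6.57, 6.88 and 7.12 after starvation, a difference of 1.75 ± 0.21. tsr, the cofilin that severs filaments, was at 11.58, 11.80 and 11.77 after WGA, against 10.10, 10.28 and 10.62 after starvation, a difference of 1.39 ± 0.14. Arpc1, of the Arp2/3 complex that branches them, was at 8.30, 8.43 and 8.43 after WGA, against 7.22, 7.19 and 7.09 after starvation, a difference of 1.22 ± 0.13. Groups did not overlap in any of the 3 genes, as in every higher call. The count was 6 without WGA replicate 2. Visceral muscle, which surrounds the midgut, also makes actin-binding proteins. The summed signals of its 12 markers were 3740 to 5960 after WGA, against 2280 to 3060 after starvation, without overlap. Of these markers 2 were higher, Act87E at 1.29 ± 0.11 and Argk1 at 1.17 ± 0.14, and 10 did not pass, among them up at -0.02 ± 0.34 and Tm2 at 0.13 ± 0.21. The part of muscle in the actin list was not tested.

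Septate junction and polarity genes had 5 higher and 0 lower of 18, with a median of 0.31. The smooth septate junction seals the midgut epithelium between enterocytes, and hoka, Tsp2A, Ssk and mesh encode its membrane proteins. hoka was at 9.48, 9.72 and 9.83 after WGA, against 8.39, 8.28 and 8.70 after starvation, a difference of 1.22 ± 0.15. Tsp2A was at 9.42, 9.54 and 9.36 after WGA, against 8.42, 8.29 and 8.32 after starvation, a difference of 1.10 ± 0.11. Ssk was at 9.79, 9.97 and 9.78 after WGA, against 8.74, 8.70 and 8.98 after starvation, a difference of 1.04 ± 0.12. Groups stood apart in each, as in every higher call. The gene mesh was also higher, by 0.68 ± 0.13, as was the polarity gene l(2)gl, by 0.94 ± 0.19. With any array left out, 4 or 5 members were higher. The enterocyte markers nub and mex1 were higher too, at 0.84 ± 0.17 and 0.85 ± 0.17, while the copper cell gene Vha100-4 was lower at -1.14 ± 0.16 (adjusted p = 0.0806 with the deposited scaling) and GATAe, at -0.30 ± 0.20, did not pass.

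Genes of fatty acid oxidation and lipid synthesis had more lower than higher calls after WGA. Of 15 tested genes that carry fatty acids into mitochondria or peroxisomes and oxidise them, 8 were lower, none was higher and all 15 differences were below 0, with a median of -0.61. whd, the carnitine palmitoyltransferase that admits fatty acids to the mitochondrion, was at 4.09, 3.92 and 4.02 after WGA, against 4.91, 4.93 and 5.35 after starvation, a difference of -1.05 ± 0.22. The acylcarnitine carrier gene colt was at 6.95, 6.73 and 6.89 after WGA, against 8.52, 7.93 and 7.71 after starvation, a difference of -1.20 ± 0.21. The peroxisomal oxidase gene Acox57D-p differed by -1.15 ± 0.23. The call count depended on scaling and on arrays. It was 0 with the deposited scaling, 4 after median centring, 3 after spike-in scaling, and 3, 5 and 4 without WGA replicate 2, starvation replicate 1 and starvation replicate 2, with 9 as the highest count. With the deposited scaling the adjusted p was 0.101 for colt, 0.121 for Acox57D-p and 0.156 for whd. The call of whd also ended without WGA replicate 2, at adjusted p = 0.0514, and with spike-in scaling. With all 9 arrays in the limma fit it was lost as well, at adjusted p = 0.334.

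In lipid synthesis and storage, 6 of 24 were lower and 2 higher, with a median of -0.28 that turned to 0.18 with the deposited scaling. mino, the acyltransferase of the first step of glycerolipid synthesis, was at 4.44, 4.36 and 4.72 after WGA, against 6.79, 7.37 and 7.88 after starvation, a difference of -2.84 ± 0.27. Dgat2, of the last step of triglyceride synthesis, was at 4.32, 4.42 and 5.09 after WGA, against 6.0, 6.12 and 5.97 after starvation, a difference of -1.42 ± 0.23. LpR1, a receptor for lipoproteins, was higher, at 5.40, 5.60 and 5.29 after WGA, against 3.85, 2.57 and 4.05 after starvation, a difference of 1.93 ± 0.37. The lower count was 3 with the deposited scaling. In glycolysis and gluconeogenesis, 4 of 15 were lower, with Hex-A, a hexokinase, at -1.18 ± 0.17 and Pepck1, of gluconeogenesis, at -1.12 ± 0.18. All 4 were lost with the deposited scaling, which gave adjusted p = 0.116 for Hex-A and 0.0977 for Pepck1 and called 2 other members higher (1 with median centring). Without WGA replicate 2, 2 lower members were left. Of 63 tested genes of oxidative phosphorylation, 1 was lower, ATPsynE at -0.52 ± 0.14. The median was -0.03, at 0.38 with the deposited scaling as for all tested probe sets, and the differences ran from -0.52 to 0.70. ATPsynE itself lost its call in each of the 4 other scalings, at adjusted p = 0.0733 to 0.953. Among 12 genes of the tricarboxylic acid cycle 2 were lower and 1 higher, and among 16 nutrient transporters 3 were lower, and both lower counts were 0 with the deposited scaling. The transporter count was also 0 with spike-in scaling, and 1 without any 1 WGA array or without starvation replicate 2.

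Of 19 genes of insulin signalling and fasting, 2 were higher and 1 lower, beside 7.57% higher and 6.88% lower over all tested genes. ImpL2 encodes a secreted protein that binds insulin-like peptides and lowers insulin signalling. It was at 8.17, 8.13 and 7.75 after WGA, against 4.94, 4.23 and 5.20 after starvation, a difference of 3.22 ± 0.25 or 9.34-fold, adjusted p = 5.35e-05. The lowest WGA array lay well above the highest starvation array. sug, a zinc-finger factor known to respond to dietary sugar, was at 4.19, 4.81 and 3.80 after WGA, against 1.57, 1.83 and 2.05 after starvation, a difference of 2.45 ± 0.42, with a starvation mean below the filter level, and it failed the filter without any 1 WGA array. The lower call of the list was lost with the deposited, median-centred and spike-in scaling, without any 1 WGA array and without starvation replicate 2. Among 22 autophagy genes 3 were higher and 1 lower. ref(2)P, the adaptor that carries ubiquitinated cargo to autophagosomes, was at 9.57, 9.72 and 9.79 after WGA, against 8.30, 8.46 and 8.76 after starvation, a difference of 1.19 ± 0.14. The other higher calls, of Atg3 (0.95 ± 0.22) and Atg4b (0.96 ± 0.25), were both lost without WGA replicate 2, WGA replicate 3 or starvation replicate 2, at adjusted p = 0.0547 to 0.086 for Atg3 and 0.0859 to 0.131 for Atg4b, and that of Atg4b also without starvation replicate 1 (0.0631) and with spike-in scaling. The lower call was lost with the deposited, median-centred and spike-in scaling, and without WGA replicate 1, WGA replicate 2 or starvation replicate 2. Atg8a, at 0.06 ± 0.15, did not pass.

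Among caspases and death regulators, 2 of 9 tested were higher, beside 7.57% of all tested genes. Dcp-1, an effector caspase, was at 7.54, 7.89 and 7.65 after WGA, against 5.16, 5.61 and 5.25 after starvation, a difference of 2.36 ± 0.18, adjusted p = 4.56e-05. Damm, another caspase, was at 6.75, 7.12 and 7.43 after WGA, against 5.17, 5.68 and 6.10 after starvation, a difference of 1.44 ± 0.26. Of 11 renewal signals, 3 were higher. Krn, a ligand of the epidermal growth factor receptor, was at 5.21, 5.18 and 5.13 after WGA, against 3.98, 4.20 and 3.82 after starvation, a difference of 1.18 ± 0.21, and bsk, the Jun kinase JNK, at 6.47, 6.29 and 6.59 after WGA, against 5.58, 5.69 and 5.21 after starvation, a difference of 0.95 ± 0.19. Jra, the fly Jun, was higher by 0.64 ± 0.16, a call lost without any 1 WGA array or starvation replicate 2, at adjusted p = 0.0844 to 0.104, and with spike-in scaling. The genes upd1 and upd2, cytokines of the JAK-STAT pathway, did not pass the filter. Of 9 tested ecdysone response genes 0 passed in limma (1 higher and 1 lower at an unadjusted p under 0.05), with a median of -0.11.

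The balance of immune genes depended on the scaling and on single arrays. In the list of peptidoglycan sensing and the IMD pathway, which senses bacterial walls, 1 of 15 was higher and 2 lower. With the deposited scaling 5 were higher and 1 lower, with median centring 4 and 1, and with spike-in scaling 0 and 1. Without starvation replicate 3 there were 3 higher, and without starvation replicate 1 there were 4 lower. PGRP-SC2, an amidase that breaks peptidoglycan down, was at 10.94, 11.04 and 11.29 after WGA, against 12.32, 12.26 and 12.29 after starvation, a difference of -1.20 ± 0.11. The NF-kB factor gene Rel was higher by 0.63 ± 0.15, with adjusted p = 0.053 to 0.0979 without each of WGA replicates 1, 2 and 3 and starvation replicate 2. Of 7 tested antimicrobial peptide genes (36 listed), 1 was lower. BomS6, a short Bomanin, was at 5.05, 4.50 and 4.21 after WGA, against 7.04, 7.28 and 6.93 after starvation, a difference of -2.50 ± 0.24. Under the deposited, median-centred and spike-in scaling 1 other member was higher. Drs, an antifungal peptide gene, had a difference of 1.44 ± 0.51 that missed the threshold, at adjusted p = 0.0981.

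Genes of chitin and glycans showed few calls, and the largest difference among these was that of GlcAT-S. Their counts stand beside 7.57% higher and 6.88% lower over all tested genes. Of 16 tested peritrophic matrix and mucin genes (32 listed), 1 was higher and 1 lower. With the deposited scaling 4 were higher and 0 lower, and 3 were higher with median centring. Muc18B was at 9.72, 10.16 and 9.76 after WGA, against 10.83, 10.81 and 10.65 after starvation, a difference of -0.88 ± 0.14, with adjusted p = 0.0537 under the deposited scaling. obst-G, with a chitin-binding domain, was at 5.87, 5.97 and 6.20 after WGA, against 5.23, 5.32 and 4.01 after starvation, a difference of 1.16 ± 0.33 that was lost without any 1 WGA array, at adjusted p = 0.0891 to 0.149. Muc26B had a difference of 1.19 ± 0.38 and missed the threshold, at adjusted p = 0.0723. Of 17 chitin enzymes, 1 was higher, the chitinase gene Cht2 at 1.22 ± 0.31, with a starvation mean below the filter level. That call ended with a replicate block (adjusted p = 0.0505) and without any 1 WGA array (0.0971 to 0.12). It also ended with spike-in scaling (0.0671), with no filter (0.0697) and with a filter at the 60th percentile (0.0614). Cht4 and Cht9, also chitinases, were at -0.27 ± 0.16 and 0.28 ± 0.14 and did not pass, nor did the chitin synthase gene Chs2, at -0.35 ± 0.24. Of 26 glycosyltransferases and amino sugar genes, 3 were higher and 2 lower, and the lower count was 0 with the deposited scaling or without starvation replicate 2. GlcAT-S, which adds glucuronic acid to glycans, was at 6.70, 6.53 and 6.34 after WGA, against 3.27, 3.39 and 2.81 after starvation, a difference of 3.36 ± 0.23, and Pgant3, which starts O-linked mucin-type chains, was at 4.91, 4.51 and 4.51 after WGA, against 3.15, 3.15 and 3.42 after starvation, a difference of 1.41 ± 0.26. GlcAT-S was one of the 5 largest higher genes. A p that missed the threshold does not show that levels were alike.

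Of 6 N-acetyltransferase-like genes, 3 were lower and all 6 differences were below 0, with a median of -1.31. speck, which acetylates dopamine, was at 6.61, 6.56 and 6.76 after WGA, against 8.10, 7.87 and 8.23 after starvation, a difference of -1.42 ± 0.15. AANATL2 differed by -2.0 ± 0.44 and AANATL3 by -1.40 ± 0.32, and both calls rested on single arrays. For AANATL2 the adjusted p was 0.0722 without starvation replicate 2, and 0.0713 and 0.061 if WGA replicates 2 or 3 were left out, and for AANATL3 it was 0.0586 without starvation replicate 1. The lower members numbered 5 with a replicate block. In metal binding and transport, 5 of 27 were lower and 0 higher (3 higher at an unadjusted p under 0.05 in limma), against 3 lower and 2 higher with the deposited scaling or median centring. Ctr1B, a copper importer, was at 6.40, 6.38 and 6.67 after WGA, against 7.85, 7.83 and 7.71 after starvation, a difference of -1.31 ± 0.15. The metallothionein gene MtnC was at 5.64, 5.75 and 6.26 after WGA, against 6.63, 9.11 and 9.04 after starvation, a difference of -2.37 ± 0.56, with starvation replicate 1 below the other starvation arrays. Its call was lost without WGA replicate 1, WGA replicate 2, starvation replicate 2 or starvation replicate 3, at adjusted p = 0.0577 to 0.0888. The lower count of the list was 1 without WGA replicate 1, WGA replicate 2 or starvation replicate 2, 2 without starvation replicate 3 and 3 without WGA replicate 3.

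**Figure D5:**
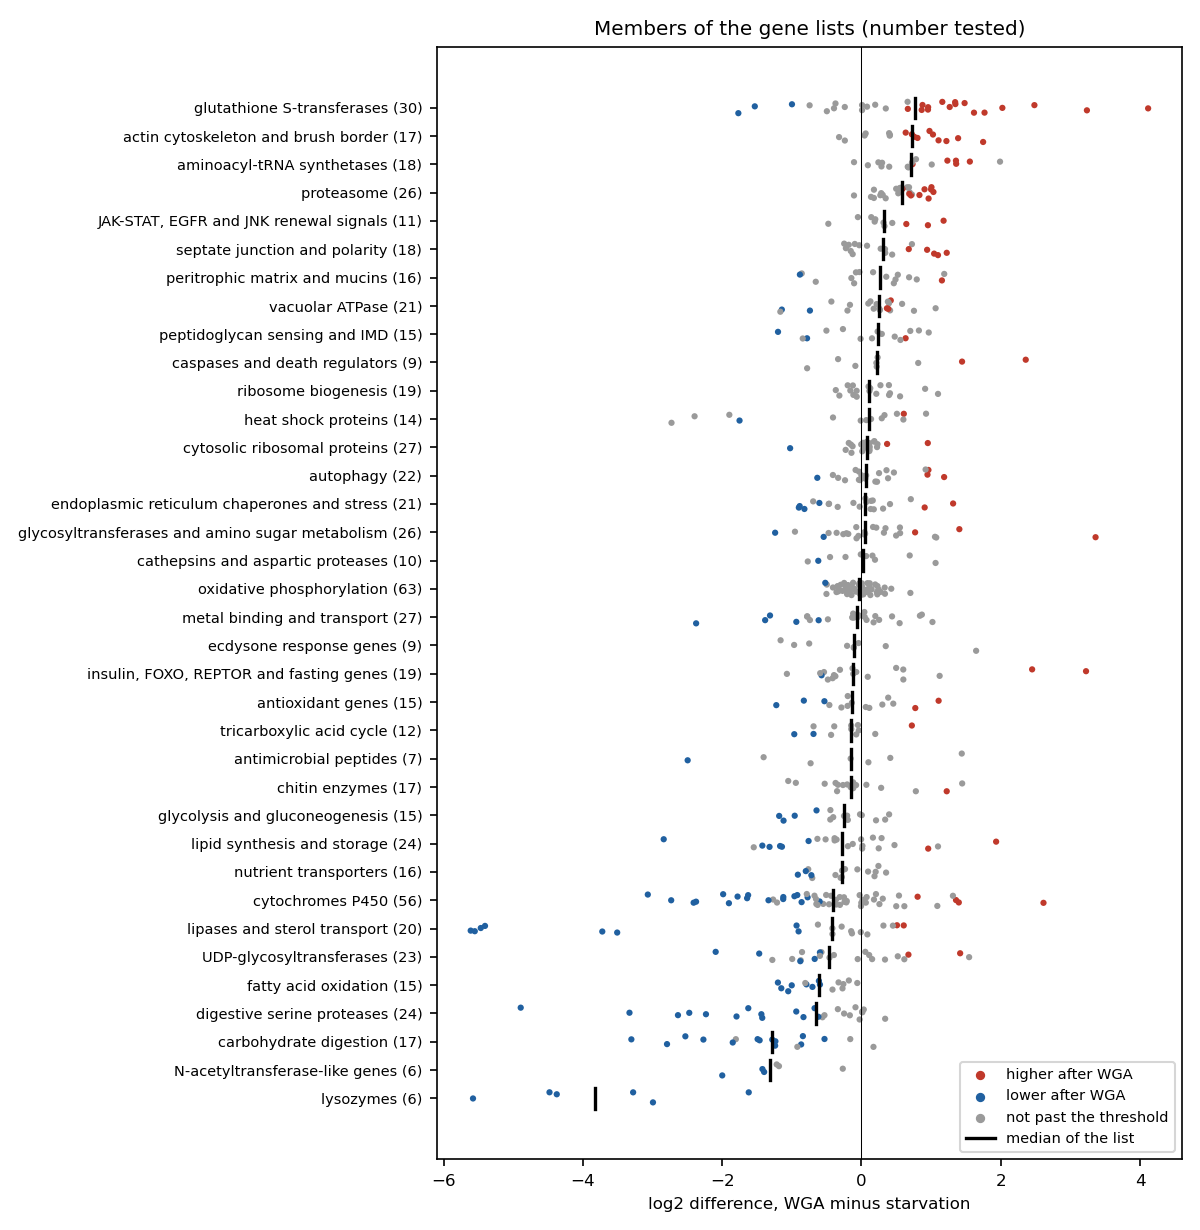
Difference of every tested member (points, x axis, log2, WGA minus starvation) of the 36 lists of gene functions, ordered by median (black bars), with the number tested in brackets. Glutathione S-transferases stand at the top with a median of 0.77 and lysozymes at the bottom with -3.83, but with the deposited, median-centred or spike-in scaling the actin and aminoacyl-tRNA synthetase lists had higher medians than the glutathione S-transferases.

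Where a direction is given as 0 above, for the higher side of the proteases, carbohydrate genes, lysozymes and fatty acid oxidation and the lower side of the proteasome, aminoacyl-tRNA synthetases, actin and septate junction genes, the count at an unadjusted p under 0.05 in limma was also 0. On the other side, 16 proteases, 14 carbohydrate genes, 9 fatty acid oxidation genes, 16 proteasome subunits and 12 aminoacyl-tRNA synthetases passed that unadjusted threshold.

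Some called genes lie near each other in the genome. In the order of the reference annotation (Release 6 plus ISO1 MT), 7131 tested genes were placed, and runs of at least 3 neighbouring tested genes that passed in 1 direction with at least 2-fold difference were read out. There were 2 higher runs with 9 genes and 6 lower runs with 20 genes. The longest higher run held GstD9, GstD1, GstD2, GstD3, GstD4 and GstD5, between 1.16 and 4.12. The other held CG33116, ref(2)P and CG10337, in a stretch of 6 protein-coding genes. Genes that were not tested can thus lie inside a run. The lower runs were the lipase genes CG17191, CG6283, CG6277 and CG6271, the lysozyme genes LysB, LysD, LysE and LysS, the mannosidase genes LManIII, LManV and LManVI, and the phosphatase genes Alp10 and Alp9 beside Msr-110. The remaining 2 held CG8997, CG7916 and CG7953, and CG13041, CG13060 and CG13059. Most of these runs are families of related genes, and how far their probe sets share signal was not tested.

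Markers of other cell types set beside these results gave few calls. The midgut markers GATAe, nub, mex1 and Vha100-4 all passed the filter, and the summed signal of 4 enterocyte and copper cell markers was 797 to 863 after WGA, against 585 to 773 after starvation. Lower after WGA without overlap were the sums of enteroendocrine, Malpighian tubule and neuronal markers. The 13 enteroendocrine markers summed to 150 to 175 after WGA, against 206 to 223 after starvation. For the 8 Malpighian tubule markers the sums were 93.7 to 120 after WGA, against 148 to 210 after starvation. For the 8 neuronal markers they were 32.2 to 46.2 after WGA, against 54.2 to 59.7 after starvation. These sums include markers that did not pass the filter, and 7, 5 and 2 markers of the 3 lists were tested. The sums were taken after quantile normalisation only. The median differences of the tested markers were -0.31, -0.73 and -0.65, and with the deposited scaling 0.005, -0.33 and -0.34. Of the tested markers, 1 gene, SLC22A at -0.89 ± 0.23, passed the test. That Malpighian tubule call was lost with the deposited, median-centred and spike-in scaling, and without WGA replicate 2, WGA replicate 3, starvation replicate 1 or starvation replicate 2. Sums of fat body (321 to 505 after WGA, 356 to 1130 after starvation), salivary gland (42.2 to 470 after WGA, 54.5 to 129 after starvation), haemocyte (70 to 138 after WGA, 79.3 to 113 after starvation), progenitor (41.9 to 86.3 after WGA, 65.1 to 73.8 after starvation) and cuticle markers (661 to 947 after WGA, 825 to 910 after starvation) overlapped. The neuronal genes elav, nSyb and brp, the haemocyte genes Hml and eater and the glue gene Sgs3 of the salivary gland did not pass the filter. In those 5 lists 0 tested markers passed in limma, and at an unadjusted p under 0.05 the lists held 1 lower fat body, 2 lower cuticle and 1 higher salivary gland marker. The part of other cell types in the differences above was not tested.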

How the data were processed

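Each pool of 50 larval midguts gave total RNA for 1 Affymetrix fly array, on which biotin-labelled copies of it were hybridised, per the labels' protocols. The authors deposited linear signal intensities, 1 for each probe set on each array, made with GCOS, the Affymetrix software, per the submitters' processing notes. The sources used here do not give its version or scaling. The 6 WGA and starvation columns were mapped by their labels, and their intensities ran from 0.052 to 11850. Detection calls were not analysed here.

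After removal of 44 control probe sets, log2(signal + 1.83) was taken, where 1.83 is the signals' 20th percentile. The 6 arrays were quantile normalised, which gives all arrays one distribution and removes any difference in total signal. Testing required 3 of the 6 arrays to exceed the 40th percentile (signal 5.56, log2 2.89). The model of group means used lmFit and eBayes with a trend in limma 3.58.1 under R 4.3.3, with p-values adjusted by Benjamini-Hochberg over all 8681 tested probe sets and called under 0.05. The fit was tested on simulated data. Errors beside differences are standard errors of the fit. The number of arrays limits the precision.

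A single gene was annotated to 12443 probe sets, more than 1 gene to 327 and no gene to 1196. The current symbol could be looked up for 12394 of the 12443. In gene lists the brightest tested probe set stood for its gene. Among 510 genes with several tested probe sets, 0 were called in opposite directions. Lists were described by counts and medians, with no test of the list. The comparison and the lists were chosen with earlier results of these data known. After a first run, 6 list entries were dropped because they matched another gene than the one meant or lack the role of the list. Named genes are the 15 largest differences in each direction without overlap between groups, up to 3 called members with the largest difference of each list, and runs of 3 or more neighbouring called genes with at least 2-fold difference. Other members named with values were chosen after their values were seen.

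Alternatives covered other scalings, offsets and filters, all 9 arrays in the fit, eBayes without a trend, array weights, a replicate block, a minimum log2 difference of 1, the median probe set per gene and each array left out. The planned search for promoter motifs was not run, and no promoter or protein sequences were used here.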

Additional observations from a re-analysis of the deposited data

How the results depend on the processing

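Over all alternatives, 0 shared calls changed direction, an outcome nearly fixed in advance because the fits share their arrays. Against 636 higher, 558 lower and 673 at least 2-fold probe sets, the deposited scaling gave 1288, 200 and 1176, median centring 974 higher and 375 lower, cyclic loess 609 and 591, spike-in scaling 499 and 345, all 9 arrays 576 and 539, no trend 431 and 366, array weights 785 and 658, and a minimum log2 difference of 1 gave 54 higher and 57 lower, 111 in all. Offsets and filters gave 571 to 670 higher and 506 to 598 lower. With each array left out in turn, 355 to 707 were higher, 337 to 549 lower and 521 to 761 at least 2-fold. Of 110 named genes, 68 kept their call in all alternatives but the minimum difference, and 81 with each array left out for which they could be tested; CG12115, Alp7, Ugt37B1 and sug failed the filter without 1 array of their brighter group. RpL29 (0.37 ± 0.10) was the named gene that changed sign, at -0.045 with adjusted p = 0.925 under spike-in scaling; the cause was not tested. The labels do not say that replicate numbers pair the arrays, and 3 arrays per group are too few to decide it. The residual correlation of same-numbered arrays was 0.09, -0.04 and 0.11, and that of other pairs was -0.15 to 0.06, while 2 of 3 WGA and 2 of 3 starvation arrays correlated best with their own number. With a replicate block, 685 were higher, 616 lower and 715 at least 2-fold, and among the named genes the call of Cht2 ended (adjusted p = 0.0505). Signals near the filter level limit the size of differences, since 52 higher calls had a starvation mean and 36 lower calls a WGA mean below it.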

Other observations

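The groups below were chosen after their values were seen, so their counts describe and test nothing. Over all tested genes, 7.57% were higher and 6.88% lower. All 8 tested subunits of the CCT chaperonin, the ring complex that folds actin and tubulin, were higher after WGA, with a median difference of 1.24 (log2). CCT5 was at 7.81, 7.69 and 7.60 after WGA, against 6.46, 6.35 and 6.02 after starvation, a difference of 1.43 ± 0.16 (SE, n = 3 arrays per group), and CCT6 had the smallest, 0.84 ± 0.17. The groups did not overlap for any subunit, as for all 636 higher calls. With any array left out, 7 or 8 subunits were higher. Of 5 tubulin folding cofactors, 4 were higher, with a median of 1.40. Tbca was at 9.20, 9.08 and 8.94 after WGA, against 7.0, 6.54 and 6.61 after starvation, a difference of 2.36 ± 0.16. That count was 2 without WGA replicate 2, WGA replicate 3 or starvation replicate 2.

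The ESCRT machinery sorts membrane proteins into endosomal vesicles and closes wounded membranes. Of its 18 tested members 13 were higher and 0 lower (15 higher and 0 lower at an unadjusted p under 0.05 in limma), with a median of 0.90. CHMP2B was at 7.96, 8.2 and 7.96 after WGA, against 5.33, 5.73 and 5.46 after starvation, a difference of 2.53 ± 0.16, and ALiX at 9.82, 9.98 and 9.95 after WGA, against 8.35, 8.28 and 8.52 after starvation, a difference of 1.54 ± 0.12. Between 9 and 14 members were higher with any array left out. Of 10 tested alkaline phosphatases, which split phosphate from their substrates, 5 were lower and 0 higher, with a median of -0.53. Besides Alp7 and Alp9, Alp10 was at 5.68, 7.20 and 7.75 after WGA, against 9.15, 9.10 and 9.67 after starvation, a difference of -2.43 ± 0.44. The lower count was 4 or 5 with any array left out, and 3 with the deposited scaling. With the deposited scaling, median centring or a replicate block, or without starvation replicate 3, 1 member was higher, as was 1 at an unadjusted p under 0.05 in limma.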
